A study of Mus musculus with 10 samples.

Results

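Megakaryocytes are the giant cells of the marrow that release platelets, and 9 of their genes were measured in femurs of young and aged mice. The genes, Itga2b, Gp1ba, Gp9, Gp6, Pf4, Ppbp, Vwf, Treml1 and Tubb1, were taken by symbol from a table of 38962 genes, and all 9 passed the filter on low counts that left 22088 genes for testing. RNA of flushed and pulverized femurs was sequenced as 1 library per mouse, with 5 young males of C57BL/6J at 2 months of age and 5 aged males of that strain at 22 months. Young mice came from the Jackson Laboratory, while aged mice came from the National Institute of Aging colony and spent their last months in house, so supplier and age cannot be told apart. The labels name no treatment or transgene. The authors describe the material as femur cortex, flushed to be free of marrow elements. Each library is bulk RNA of that bone, which can still hold marrow, vessel, muscle and bone cells. In such bulk RNA, fewer cells of a type and less RNA per cell cannot be told apart.

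Platelets are shed from megakaryocytes as cell fragments and carry the surface receptors, granule proteins and microtubules that the megakaryocyte made. The receptors bind collagen, fibrinogen and von Willebrand factor at a wounded vessel, the granules release chemokines and adhesive proteins, and a ring of microtubules holds the platelet in its disc shape. Megakaryocytes grow from blood stem cells under the hormone thrombopoietin, and transcription factors of the GATA and ETS families switch on many of their genes.

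None of the 9 genes passed the test between aged and young femurs, although 8 of 9 fitted log2 fold changes were above 0, with a median of 0.47. In all tested genes the median was 0.01, and 50.9% were above 0. The median of all tested genes moved to -0.16 with scaling by total counts, and then 7 of 9 members were above 0, against 9 of 9 with DESeq2. Total counts include the gene Gm26917, which alone took 14.5% to 24.0% of them in young and 16.1% to 31.0% in aged libraries. With TMM scaling that left Gm26917 out, 8 of 9 members were above 0. A gene was called where its Benjamini-Hochberg adjusted p, taken over all 22088 genes in edgeR's quasi-likelihood fit, did not exceed 0.05, and this background held 1610 called genes (7.29%), of which 812 were higher (3.68%) and 798 lower (3.61%). At an unadjusted p under 0.05, edgeR gave 4 of the 9 (Itga2b, Tubb1, Gp1ba and Vwf) as higher, against 2948 of all tested genes (13.3%). This count of 4 was 0 with scaling by total counts, 7 with muscle markers as a covariate and 2 with marrow blood cell markers as a covariate. It was 6 with DESeq2 and 5 with limma-voom. With 1 library left out it was 1 without aged 4, and 2 without young 2, young 3 or aged 2. It was 3 without young 4 or aged 3, 5 without young 5, and 6 without young 1, aged 1 or aged 5. The count of called members was also 0 with limma-voom, which called 1523 of all 22088 genes. It was 2 with DESeq2 (Itga2b and Tubb1), which called more of all genes, 2828 of 22088. Without the library young 5 the count of called members was 3, against 1686 of 22390 genes. Their edgeR adjusted p was then 0.0433 for Itga2b, 0.0462 for Vwf and 0.0322 for Tubb1. The authors, who tested these libraries with DESeq2, list Tubb1 among the genes that were significantly higher in aged mice. Levels of young and aged mice overlapped for all 9 members, while 1723 tested genes (7.8%) had no overlap in either direction. The members are correlated with each other, so they are not 9 separate pieces of evidence.

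The libraries held 31788232 to 45075335 counts, and the 9 members together took 0.0471% to 0.129% of them. Counts of a member in a library ran from 309 (Gp9) to 21296 (Vwf). Levels are given as CPM, counts of a gene scaled to a common library size by TMM, and as mean ± SD over mice, and coordinates are those of the mouse assembly GRCm38.

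To show the control regions of genes that moved together across the libraries, the 100 bases before the RefSeq transcription start (assembly GRCm38.p6) are printed for Tubb1 (chr2:174450495-174450594, + strand), which had the smallest p of the members, for Treml1 (chr17:48359816-48359915, + strand), the member most correlated with Tubb1, for Gp1ba (chr11:70639022-70639121, + strand), the one promoter among those of the members with a GATA motif in this window, and for Gp9 (chr6:87777970-87778069, + strand) and Gp6 (chr7:4397745-4397844, - strand), whose fold changes were nearest to 0. Capitals mark GGAAG, a form of the sites bound by ETS factors, on either strand (CTTCC when on the other). They also mark the GATA motif AGATAA or TGATAA on either strand (TTATCT or TTATCA). The shorter ETS core GGAA (TTCC on the other strand) was not searched for or counted, and Treml1 and Gp6 hold copies of it in lower case. The sequences read 5′ to 3′ on the strand of the gene.
Tubb1: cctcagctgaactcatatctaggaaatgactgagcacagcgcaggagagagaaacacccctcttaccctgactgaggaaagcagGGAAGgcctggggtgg
Treml1: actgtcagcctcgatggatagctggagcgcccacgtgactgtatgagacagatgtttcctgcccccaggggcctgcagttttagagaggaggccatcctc
Gp1ba: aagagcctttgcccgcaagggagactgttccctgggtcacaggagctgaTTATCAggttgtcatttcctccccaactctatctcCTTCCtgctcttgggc
Gp9: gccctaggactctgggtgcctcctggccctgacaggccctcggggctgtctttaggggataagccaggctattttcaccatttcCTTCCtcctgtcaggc
Gp6: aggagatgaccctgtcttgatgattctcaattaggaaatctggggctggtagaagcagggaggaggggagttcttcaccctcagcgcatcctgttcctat
The reference table held a promoter for 8 of the 9 members, all but Vwf. GGAAG was found in this window in 6 of the 8 (Gp1ba, Gp9, Itga2b, Pf4, Ppbp and Tubb1), and in 11744 of 32851 promoters in the table (35.7%). In Tubb1, Gp1ba and Gp9 the copy nearest to the RefSeq start ended 12 bases before that start. For Tubb1 and Gp9 the bases just after the RefSeq start did not match a GENCODE vM21 transcript of the gene. The Tubb1 window ends at 174450594, while its gene model in the count table starts at 174450695. The Itga2b window overlaps a GENCODE exon of Itga2b. AGATAA or TGATAA was found in 1 of the 8 (Gp1ba) and in 6.17% of all promoters. Letters alone do not show that a factor binds there.

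The 4 surface receptors and adhesion subunits among the members differed in how far aged femurs lay from young ones, from 1.59-fold for Itga2b to 0.993-fold for Gp9. Itga2b (ENSMUSG00000034664.13, chr11:102453297-102470122, - strand) encodes integrin alpha IIb, which pairs with integrin beta 3 as the fibrinogen receptor. In young femurs it stood at 198, 123, 149, 117 and 249 CPM in mice 1 to 5, and in aged femurs at 198, 245, 321, 376 and 191 CPM. Aged 3 and aged 4 lay above every young mouse, while young 5 lay above 3 of the aged mice. The means were 167 ± 55.7 versus 266 ± 80.3 CPM (SD, n = 5 mice per group), a log2 fold change of 0.67 with a standard error of 0.24 (95% interval 0.14 to 1.20, edgeR adjusted p = 0.113).

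Gp1ba (ENSMUSG00000050675.7, chr11:70639122-70642036, + strand) encodes the chain of the GPIb-IX-V complex that binds von Willebrand factor. Its level was 27.9, 19.1, 20.7, 23.1 and 30.3 CPM in young mice 1 to 5 and 29.7, 40.0, 30.0, 43.9 and 23.1 CPM in aged mice 1 to 5. Aged 2 and aged 4 exceeded all young mice, and aged 5 lay among the young. The fitted fold was 1.38 (95% interval 1.06 to 1.79), with a log2 fold change of 0.46 and a standard error of 0.18 (edgeR adjusted p = 0.125).

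Gp9 (ENSMUSG00000030054.4, chr6:87778072-87779768, + strand) encodes a small subunit of the same complex, and its means were alike (16.1 ± 6.85 versus 16.0 ± 5.12 CPM, SD, n = 5 mice per group). Its values were 15.2, 13.03, 10.7, 13.5 and 28.0 CPM in young mice 1 to 5 and 12.3, 22.2, 12.9, 20.9 and 11.6 CPM in aged mice 1 to 5. The highest of all 10 was young 5, and 3 of the aged mice lay below young 2 and young 4. The log2 fold change was -0.01 with a standard error of 0.28, and its 95% interval from -0.62 to 0.60 includes changes as large as those fitted for Treml1 or Vwf (edgeR adjusted p = 0.987). Without young 5 the log2 fold change was 0.29 (edgeR adjusted p = 0.402).

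Gp6 (ENSMUSG00000078810.4, chr7:4363965-4397744, - strand) encodes the collagen receptor of platelets. It was measured at 21.4, 18.1, 14.7, 16.1 and 28.8 CPM in young mice 1 to 5 and at 19.1, 23.3, 19.6, 27.5 and 16.8 CPM in aged mice 1 to 5. Young 5 was again the highest, and the groups covered nearly one range. The log2 fold change was 0.10 with a standard error of 0.18 (95% interval -0.29 to 0.49, edgeR adjusted p = 0.760).

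**Figure D1:**
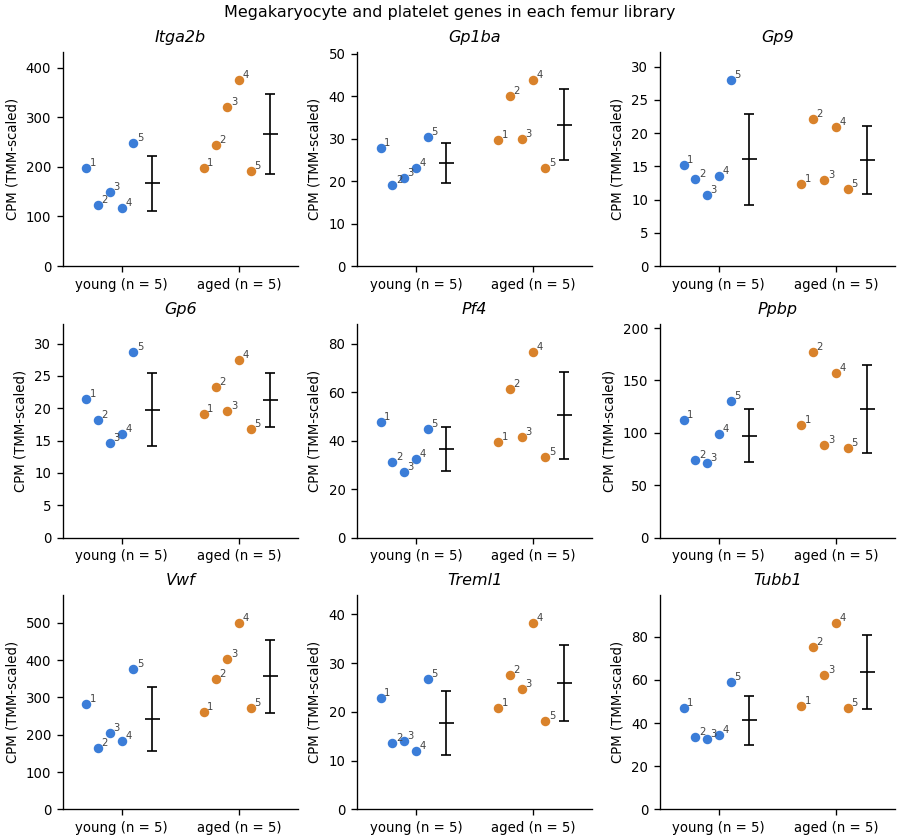
Level of each of the 9 genes in CPM (TMM-scaled, vertical axis from 0) in every library, with young mice in blue, aged mice in orange, mouse numbers beside the points, and black bars for mean ± SD (n = 5). The groups overlap in all 9 panels, young 5 and aged 4 stand high in most of them, and the means of Gp9 (16.1 and 16.0 CPM) are nearly level while those of Itga2b (167 and 266 CPM) are not.

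The 3 genes of granule proteins, Pf4, Ppbp and Vwf, had fitted folds of 1.27 to 1.48. Pf4 (ENSMUSG00000029373.7, chr5:90772435-90773383, + strand) and Ppbp (ENSMUSG00000029372.7, chr5:90768518-90770063, + strand) encode the chemokines platelet factor 4 and pro-platelet basic protein, and their gene models lie 2371 bases apart. Pf4 was at 47.7, 31.2, 27.0, 32.4 and 44.7 CPM in young mice 1 to 5 and at 39.6, 61.1, 41.6, 76.7 and 33.4 CPM in aged mice 1 to 5. Only aged 2 and aged 4 exceeded the young range. The log2 fold change of Pf4 was 0.47 with a standard error of 0.24 (95% interval -0.05 to 0.98, edgeR adjusted p = 0.237).

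Ppbp was at 112, 73.9, 71.0, 98.6 and 131 CPM in young mice 1 to 5 and at 107, 178, 88.1, 158 and 85.4 CPM in aged mice 1 to 5. Its aged group split in the same way, with aged 2 and aged 4 above the young range and the other 3 inside it. The log2 fold change was 0.34 with a standard error of 0.24 (95% interval -0.17 to 0.86, edgeR adjusted p = 0.389).

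Vwf (ENSMUSG00000001930.17, chr6:125546774-125686679, + strand) encodes von Willebrand factor, an adhesive protein that endothelial cells make as well. It stood at 281, 165, 205, 182 and 375 CPM in young mice 1 to 5 and at 261, 349, 402, 499 and 272 CPM in aged mice 1 to 5. Aged 3 and aged 4 were above every young mouse. The means were 242 ± 86.6 versus 357 ± 98.2 CPM (SD, n = 5 mice per group), with a log2 fold change of 0.56 and a standard error of 0.24 (edgeR adjusted p = 0.166). The summed level of 16 endothelial markers was 749 ± 90.5 CPM in young and 740 ± 47.6 CPM in aged femurs (SD, n = 5; two-sided exact permutation test, p = 0.865), ranging from 633 to 858 CPM and from 692 to 816 CPM, and none of the 16 was at 0 in any library. Of these, Emcn, which encodes endomucin, was lower in aged femurs and the other 15 were not called.

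Treml1 (ENSMUSG00000023993.7, chr17:48359916-48367176, + strand) encodes a receptor stored in the granules and brought to the surface on activation. Its level was 22.7, 13.5, 13.9, 11.9 and 26.7 CPM in young mice 1 to 5 and 20.9, 27.5, 24.8, 38.2 and 18.2 CPM in aged mice 1 to 5. The aged mice all lay above the 3 lowest young mice and, except for aged 2 and aged 4, below young 5. The log2 fold change was 0.55 with a standard error of 0.26 (95% interval -0.02 to 1.11, edgeR adjusted p = 0.207).

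Tubb1 (ENSMUSG00000016255.5, chr2:174450695-174457882, + strand), the beta tubulin of the platelet's microtubule ring, had the smallest p of the members. It was measured at 47.1, 33.6, 32.8, 34.3 and 58.9 CPM in young mice 1 to 5 and at 47.8, 75.5, 62.5, 86.3 and 46.9 CPM in aged mice 1 to 5. Aged 2, aged 3 and aged 4 were above all young mice, and aged 1 and aged 5 lay close to young 1. The means were 41.3 ± 11.4 versus 63.8 ± 17.2 CPM (SD, n = 5 mice per group), a 1.54-fold difference (95% interval 1.13 to 2.11) with an unadjusted p = 0.0105 and an adjusted p = 0.0862 in edgeR's fit.

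**Figure D2:**
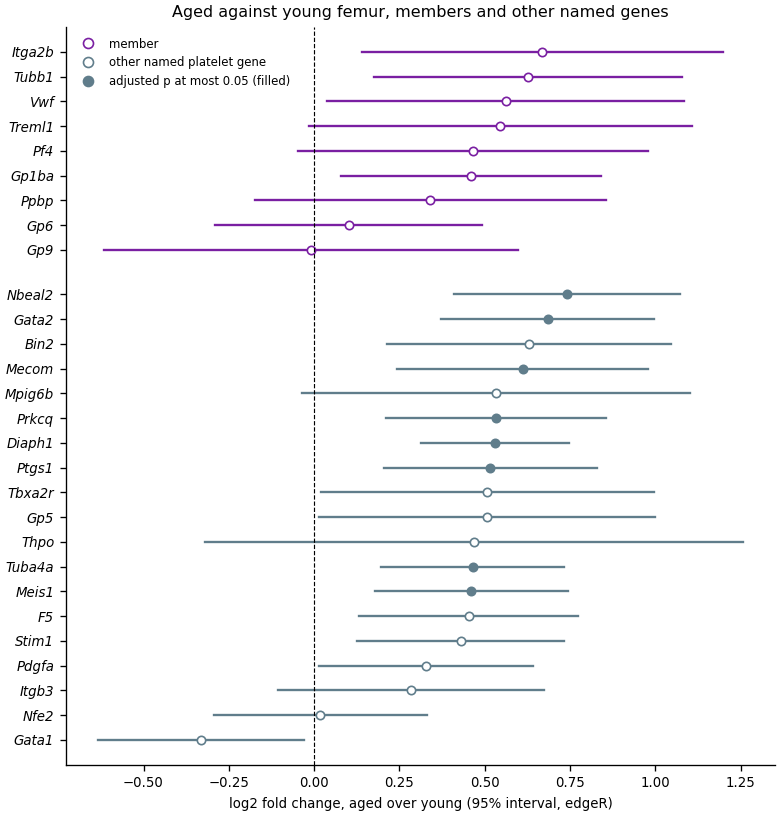
Log2 fold change, aged over young, with its 95% interval from edgeR's fit, for the 9 members (purple) and for other named platelet genes (grey), where filled points have an adjusted p of at most 0.05. Itga2b (0.67) and Tubb1 (0.63) lead the members and Gp9 (-0.01) comes last, and all 9 points are open.

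Per kilobase of exon, the chemokine genes were the most abundant members in both groups. Ppbp was at 89.8 CPM per kb in young and 114 CPM per kb in aged femurs, and Pf4 at 50.7 and 70.0. Itga2b (30.7 and 48.8 CPM per kb) and Tubb1 (29.4 and 45.4) followed, close to each other in both groups. Gp9 came next in young femurs (18.3 CPM per kb), while in aged femurs it (18.1) lay just below Treml1 (18.5) and Vwf (22.2). Gp1ba was at 8.92 and 12.3 CPM per kb, and Gp6, whose gene model holds 5900 exon bases, was the lowest at 3.36 and 3.60.

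The members were high and low together from mouse to mouse within each age group. With each gene's mean over the 10 libraries set to 1, the average of the 9 genes was 0.985, 0.681, 0.667, 0.713 and 1.24 in young mice 1 to 5 and 0.918, 1.32, 1.08, 1.57 and 0.822 in aged mice 1 to 5. Aged 4 had the highest level of 6 members (Pf4, Itga2b, Gp1ba, Vwf, Treml1 and Tubb1), young 5 of Gp9 and Gp6, and aged 2 of Ppbp. Every member was lowest in one of young 2, young 3 and young 4. Within a group the highest mouse exceeded the lowest by 1.59 to 2.62 times in young and 1.63 to 2.30 times in aged mice, which was more than the fitted fold between the groups for each of the 9 genes (for Itga2b, 2.13 and 1.97 against 1.59). A range of single mice and a fold between groups are unlike measures, so this does not tell whether the groups differ.

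**Figure D3:**
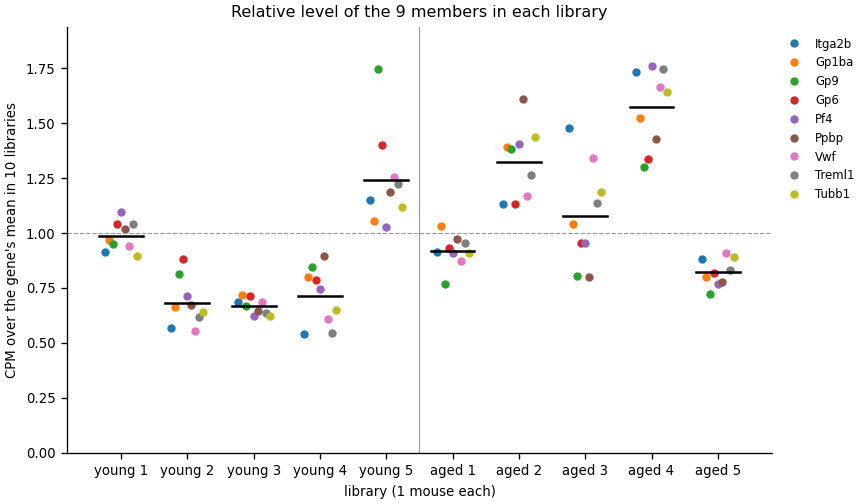
Level of each of the 9 members in each library, as CPM over the gene's own mean in the 10 libraries (vertical axis from 0), with a colour for each gene and a black bar for the mean of the 9. The bars run from 0.667 (young 3) to 1.57 (aged 4), and young 5 (1.24) lies above 3 of the 5 aged mice.

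Over deviations of log2 CPM from the group means in 10 libraries, the 36 pairs of members had a median Pearson correlation of 0.878 (range 0.534 to 0.982) and a median Spearman correlation of 0.824. Without young 5 and aged 4 the median Pearson correlation was 0.821 (range 0.199 to 0.964). These correlations are given as descriptions, since the points share their libraries, depth and scaling. Vwf and Itga2b were the closest pair (0.982), followed by Treml1 with Tubb1 (0.953) and Pf4 with Gp1ba (0.950). Ppbp and Itga2b were the least alike (0.534). For comparison, the mean correlation of a gene with the 9 members had a median of -0.04 over 17033 genes, and 186 of these (1.09%) were above 0.8.

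Outside the members, the genes with a highly similar course over the 10 libraries included Alox12 (mean correlation 0.913), Tmem40 (0.909), Gnaz (0.904) and Selp (0.903). Alox12 encodes the platelet lipoxygenase, Gnaz a G protein subunit and Selp the adhesion receptor P-selectin. Alox12 was at 55.7 ± 20.8 versus 84.1 ± 26.6 CPM and Tmem40 at 13.8 ± 4.34 versus 20.1 ± 6.85 CPM in young and aged femurs (SD, n = 5 mice per group). None of these 4 passed edgeR's test, with adjusted p = 0.184 for both Alox12 and Tmem40, 0.280 for Selp and 0.563 for Gnaz. Gp5 followed the members at a mean correlation of 0.871 and Itgb3 at 0.846. The transcription factor genes Nfe2 (0.497), Tal1 (0.408) and Gata1 (0.398) followed them less closely, and Thpo, which encodes thrombopoietin and is made mainly in liver, did not (-0.10).

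Within a library, ratios between members do not depend on how libraries are scaled. Counts of Gp6 per count of Itga2b were 0.108, 0.147, 0.0985, 0.137 and 0.115 in young mice 1 to 5 and 0.0965, 0.0950, 0.0611, 0.0731 and 0.0882 in aged mice 1 to 5. Every aged mouse was below every young mouse, by a narrow margin between young 3 (0.0985) and aged 1 (0.0965), and the mean was 0.683 times that in young femurs. The ratio of Gp9 to Itga2b was 0.0964 ± 0.0205 versus 0.0618 ± 0.0182 (SD, n = 5 mice per group), and the groups overlapped through aged 2 (0.0905). Vwf per Itga2b count stayed within 1.25 and 1.55 in all 10 libraries (1.44 ± 0.0891 versus 1.35 ± 0.0743). Itga2b had the largest fitted fold of the 9, so ratios over it lean below 1, and of all tested genes 1374 of 22087 (6.22%) had aged mice below young mice without overlap in this ratio.

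Of the 36 ratios between 2 members, 4 had no overlap between young and aged mice (11.1%), against 8.15% of all pairs of genes that were counted in every library. The 4 were Itga2b, Treml1 and Tubb1 over Gp6, and Tubb1 over Gp9, each relatively higher in aged mice, and the share is close to the background.

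**Figure D4:**
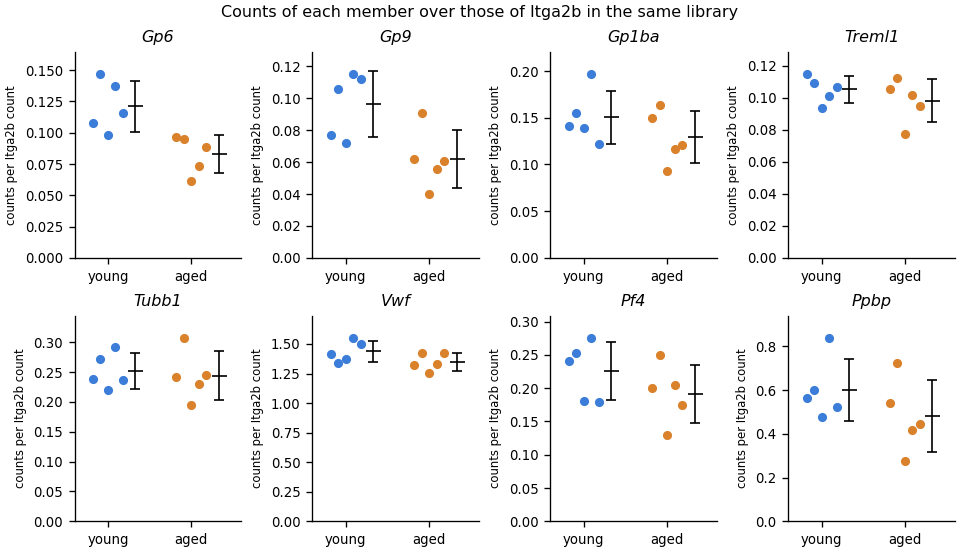
Counts of 8 members per count of Itga2b in the same library (vertical axes from 0), for young (blue) and aged (orange) mice with mean ± SD (n = 5). The groups do not overlap for Gp6 (0.0985 to 0.147 in young, 0.0611 to 0.0965 in aged mice) and overlap for the other 7.

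The other genes of the platelet programme, 90 tested genes in 6 lists, held 8 called genes, all higher in aged femurs. The 8 had mean correlations with the members from 0.131 (Mecom) to 0.725 (Nbeal2), against 0.871 for Gp5 and 0.846 for Itgb3. The median log2 fold change of the 90 genes was 0.22, and 74 of the 90 were above 0. With 8 of 90 called higher against 3.68% of all tested genes, and 0 of 90 called lower against 3.61%, the lists are described here by their counts only, since they were chosen with earlier results known. All 8 calls were lost when libraries were scaled by total counts only and with the level of marrow blood cell markers as a covariate. DESeq2 called 13 of the 90 genes, against 2828 of all 22088 tested genes. The marrow covariate includes B cell markers, whose sum did not overlap between young (360 to 508 CPM) and aged femurs (256 to 347 CPM). Its effect therefore cannot be fully told apart from that of age. With that covariate 450 of all genes were called, and the log2 fold changes were 0.58 for Nbeal2, 0.61 for Gata2 and 0.45 for Diaph1, against 0.74, 0.68 and 0.53 without it. Without young 2, young 4 or aged 3 the number was 3, without young 3 or aged 4 it was 4, and without young 1 it was 5. Nbeal2, Diaph1 and Gata2 were called in each of the 10 fits that left out 1 library, while the calls of Tuba4a, Prkcq, Ptgs1, Mecom and Meis1 were lost in 6 to 8 of them. Genes of these lists were called lower in 2 of the 10 fits, Tal1 without young 3 and Gata1 without aged 2.

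Among receptors and adhesion genes, 0 of 18 tested were called, and the median log2 fold change was 0.24. At an unadjusted p under 0.05, edgeR gave 2 of the 18 as higher, Gp5 and Tbxa2r. Gp5, the remaining large subunit of the GPIb-IX-V complex, was at 37.3 ± 11.6 versus 53.1 ± 15.2 CPM (mean ± SD of 5 mice each; log2 fold change 0.51, edgeR adjusted p = 0.184). Itgb3, the partner chain of Itga2b that osteoclasts also express, was at 296 ± 61.0 versus 360 ± 94.7 CPM (log2 fold change 0.28, edgeR adjusted p = 0.346). Tbxa2r, the thromboxane receptor, and Mpig6b, an inhibitory receptor of megakaryocytes, differed by 0.51 and 0.53 on the log2 scale (adjusted p = 0.178 and 0.221 from edgeR).

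Gp1bb, which encodes the chain that links Gp1ba to its complex, had 3 to 20 counts per library and was not tested. In GENCODE vM21 its exons share 1902 bases (91.1%) with exons of Sept5 on the same strand, and reads there cannot be placed in 1 gene by position. Whether this set its low count was not tested. Exons of the 9 members share no base with another gene in that annotation.

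Of 14 tested granule genes, Nbeal2 was called. Nbeal2, needed to build alpha granules and deficient in grey platelet syndrome, was at 206, 153, 174, 158 and 208 CPM in young mice 1 to 5 and at 234, 274, 346, 393 and 256 CPM in aged mice 1 to 5. All aged mice were above all young mice, and the level rose from 180 ± 26.3 to 301 ± 66.8 CPM (log2 fold change 0.74, standard error 0.15, edgeR adjusted p = 0.0121). F5, coagulation factor V, differed by 0.45 on the log2 scale and Pdgfa, a growth factor chain, by 0.33 (adjusted p = 0.0790 and 0.176 from edgeR). The median of the list was 0.07.

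Of 16 tested cytoskeleton genes, Diaph1 and Tuba4a were called. Diaph1, a formin that nucleates actin, rose from 160 ± 13.2 to 231 ± 20.5 CPM without overlap between the groups (log2 fold change 0.53, standard error 0.10, edgeR adjusted p = 0.00792). Tuba4a, an alpha tubulin of platelets that muscle and other tissues also express, rose from 171 ± 29.0 to 236 ± 24.4 CPM (log2 fold change 0.46, edgeR adjusted p = 0.0392), and young 5 (221 CPM) lay inside the aged range. The call of Tuba4a ended with the muscle covariate (adjusted p = 0.0638). Bin2, a membrane-bending protein of blood cells, had a log2 fold change of 0.63 (edgeR adjusted p = 0.0651).

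Of 19 tested signalling genes, Prkcq and Ptgs1 were called. Ptgs1, the cyclooxygenase that starts thromboxane synthesis, rose from 45.9 ± 7.26 to 65.7 ± 13.5 CPM (edgeR adjusted p = 0.0468). Prkcq, protein kinase C theta of platelets, T cells and muscle, rose from 24.0 ± 5.86 to 34.8 ± 4.11 CPM (edgeR adjusted p = 0.0468). The call of Ptgs1 ended with upper quartile scaling (adjusted p = 0.0507) and limma-voom (0.0514), and that of Prkcq with the muscle covariate (adjusted p = 0.0785). Stim1, a calcium sensor, differed by 0.43 on the log2 scale, with an adjusted p = 0.0789 from edgeR, and the median of the list was 0.30.

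Among 15 tested transcription factor genes, Gata2, Mecom and Meis1 were called, all of which are also used by blood stem cells. The median log2 fold change of the list was 0.21, and 10 of the 15 were above 0. edgeR gave 5 of the 15 as higher and 2 as lower at an unadjusted p under 0.05. Gata2 was at 20.3, 15.3, 15.8, 15.3 and 17.6 CPM in young mice 1 to 5 and at 25.4, 27.5, 30.3, 33.7 and 18.8 CPM in aged mice 1 to 5, with only aged 5 inside the young range. The log2 fold change of Gata2 was 0.68 with a standard error of 0.15 (edgeR adjusted p = 0.0139). Mecom rose from 5.42 ± 1.09 to 8.31 ± 1.70 CPM and Meis1 from 14.0 ± 2.65 to 19.3 ± 1.79 CPM (edgeR adjusted p = 0.0465 and 0.0498). Both calls ended with the muscle covariate (adjusted p = 0.112 and 0.0662), that of Mecom also with limma-voom (0.0529) and that of Meis1 with upper quartile scaling (0.0537). Of 10 stem and progenitor markers, 1 was called (Mecom), and their summed level was 112 to 150 CPM in young and 124 to 172 CPM in aged femurs.

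Gata1, the GATA factor that megakaryocytes share with red cell precursors, was at 39.5 ± 6.07 versus 31.4 ± 6.11 CPM (log2 fold change -0.33, 95% interval -0.63 to -0.03, edgeR unadjusted p = 0.0338 and adjusted p = 0.158). Nfe2, a factor needed for platelet release, was at 78.4 ± 13.8 versus 79.4 ± 14.7 CPM (log2 fold change 0.02, edgeR adjusted p = 0.950). Both genes are also expressed in red cell precursors, whose 14 markers summed to 6033 to 11467 CPM in young and 4240 to 11220 CPM in aged femurs (two-sided exact permutation test, p = 0.206). Of the 14 markers, 0 had a log2 fold change above 0 (median -0.43), and 0 were called.

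In the thrombopoietin pathway 0 of 8 tested genes were called. Thpo was at 1.48 ± 0.654 versus 2.06 ± 0.960 CPM (log2 fold change 0.47, edgeR adjusted p = 0.444), and its log2 fold change was -0.0446 with the muscle covariate. Stat5a and Stat5b, which carry cytokine signals to the nucleus, differed by 0.15 and 0.19 on the log2 scale (adjusted p = 0.401 and 0.406 from edgeR).

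**Figure D5:**
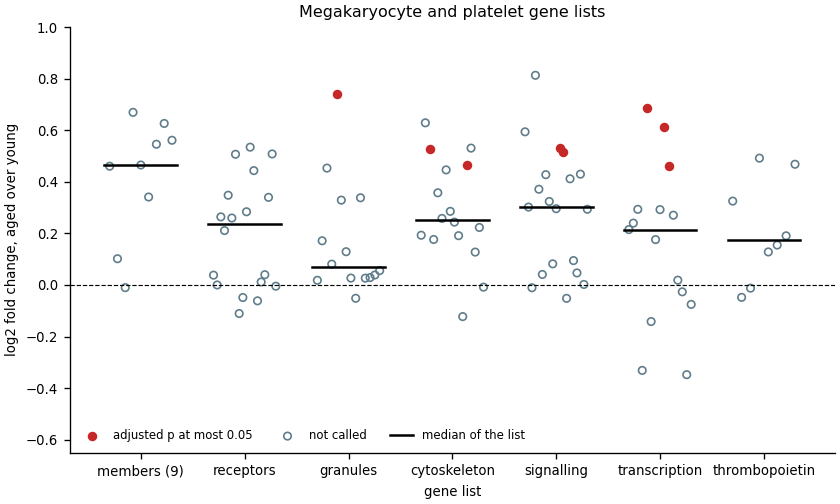
Log2 fold change, aged over young, of each tested gene in the members and the 6 other lists of the platelet programme, where red points have an adjusted p of at most 0.05 in edgeR's test and black bars are list medians. The median is 0.47 for the members and between 0.07 (granules) and 0.30 (signalling) for the other lists, and the 8 red points lie above 0.

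Markers of other cells of the bone were measured beside the members. Neutrophil markers (13 genes) summed to 1895 to 2804 CPM in young and 1546 to 5144 CPM in aged femurs (two-sided exact permutation test, p = 0.516), with aged 2 highest. Macrophage markers (11 genes) summed to 448 to 567 CPM and 291 to 852 CPM (p = 0.937, same exact test), with aged 4 highest. B cell markers (10 genes) were lower in aged femurs (360 to 508 versus 256 to 347 CPM, p = 0.00794 in the exact test, the smallest it allows, and 0.0556 after adjustment over 7 lists), and 7 of the 10 genes were called lower. Skeletal muscle markers (14 genes) summed to 21310 to 62822 CPM and 35658 to 98485 CPM (exact test, p = 0.119), mast cell and basophil markers (8 genes) to 19.8 to 27.3 CPM and 18.0 to 36.6 CPM (exact test, p = 0.587), and osteoblast markers (13 genes) to 43399 to 92071 CPM and 18640 to 46262 CPM. Of the 13 osteoblast markers 5 were called lower and 0 higher, with a median log2 fold change of -1.17. Log2 fold changes were above 0 for 13 of 13 tested neutrophil genes (median 0.29) and 13 of 13 tested muscle genes (median 0.55). They were above 0 for 7 of 11 macrophage genes and 3 of 7 tested mast cell and basophil genes. In these 4 lists 0 genes were called. No marker was at 0 in any library. With the muscle covariate the log2 fold change of Pf4 was 0.63 against 0.47 without it, that of Gp1ba 0.57 against 0.46 and that of Itga2b 0.69 against 0.67. With the marrow blood cell covariate it was 0.51 for Pf4, 0.48 for Gp1ba, 0.42 for Itga2b and 0.36 for Vwf (0.56 without it). None of the 9 members was called in either fit or without a covariate. The part of the other cell types in the levels of the members was not tested.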

How the data were processed

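Femur RNA of 5 young and 5 aged mice was sequenced, 1 library per mouse. The authors deposited counts of reads per gene, made by trimming (Cutadapt), aligning to GRCm38.p6 (STAR) and counting (featureCounts). The labels name a human build, whereas the identifiers are mouse Ensembl ones. The sources used here do not give the annotation release or the use of strand. All 10 columns were mapped by title.

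Counts were tested with edgeR 4.0.16 in R 4.3.3 (minimum count 10, minimum total 15, TMM scaling, robust quasi-likelihood fit, Benjamini-Hochberg adjustment). Standard errors were taken from the log2 fold change and the F statistic (its absolute value over the square root of F). Alternatives were other scalings and filters, DESeq2 1.42.0, voom of limma 3.58.1, a 1.5-fold threshold, covariates (mean log2 CPM of muscle markers, or of neutrophil, red cell and B cell markers), a replicate block and leaving out each library. For correlations, log2 CPM were computed with prior count 2, over genes with a mean of at least 1 CPM. Marker sums were compared by exact permutation over 252 splits. Steps were tested on simulated data. Figures used matplotlib 3.10.9 in Python 3.11.15.

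Members and lists were chosen with earlier results of these data known. Named were all members, the called genes and up to 3 smallest p of each platelet list, the 5 genes most like the members, and partners or regulators of members (Gp1bb, Gp5, Itgb3, Thpo, Gata1 and Nfe2 among them). Some genes that this rule names are not reported here. Tal1, Emcn and Sept5 were named after their values were seen. Of the platelet lists, 5 symbols were not matched in the table (Vps16b, Fgg, Fgb, Irag1, Mkl1) and 3 genes were below the filter (Gp1bb, Fga, Asgr1).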

Additional observations from a re-analysis of the deposited data

Results flagged for a closer look

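Of 96 groups of 5 libraries examined for a library far from the other 4, 5 were marked, and chance marks about 1 in 20 such groups. Gp9 was at 28.0 CPM in young 5 against 10.7 to 15.2 CPM in the other young mice, and Tuba4a was at 221 CPM in young 5 against 148 to 166 CPM. In aged 3, Stim1 was at 194 CPM against 136 to 153 CPM in the other aged mice, and Stat5b at 142 CPM against 105 to 113 CPM. The summed osteoblast markers were at 46262 CPM in aged 5 against 18640 to 26003 CPM in the other aged mice.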

How the results depend on the processing

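The number of called members was 0 in the analysis as reported and 0 in all alternatives except DESeq2 (2) and leaving out young 5 (3), so the range over leaving out 1 library was 0 to 3. Over all genes, against 1610, the number called was 2828 with DESeq2, 450 with marrow blood cell markers as a covariate, and 686 to 1686 when 1 library was left out (lowest without young 2, then 814 without young 4 and 949 without aged 3). Scaling by total counts gave 285 higher and 916 lower genes, the median of all genes moved to -0.16 on the log2 scale, and 7 of 9 members were above 0. The split was 1545 and 1283 with DESeq2. For the other platelet lists, against 8, the number was 0 with total counts alone and with the marrow covariate, 13 with DESeq2, 3 at a minimum of 1.5-fold and 3 to 10 when 1 library was left out.

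The labels do not say that replicate numbers pair the mice. Same-numbered libraries correlated at -0.15 to 0.17 in their deviations from the group means, which cannot show whether mice were paired. With a replicate block 0 members, 5 other platelet genes and 1632 genes (957 higher, 675 lower) were called.

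Some fold changes changed sign. Gp9 had log2 fold changes of 0.0029 with RLE scaling, 0.0023 with DESeq2, 0.0227 with limma-voom, 0.0603 with the muscle covariate, 0.0265 with the marrow covariate, 0.0264 with the replicate block, and -0.16 to 0.29 when 1 library was left out (0.0715, 0.0572 and 0.0872 without aged 1, 3 and 5). Gp6 had -0.0617 with total counts alone and -0.0071 to 0.28 when 1 library was left out, Stat5a -0.0098 and Nfe2 -0.15 with total counts alone, Nfe2 also -0.0703 without young 3 and -0.0955 without aged 2 (up to 0.0935, without young 4), and Thpo, at 0.47 as reported, -0.0446 with the muscle covariate. Of the log2 fold changes of single genes, 557 kept direction and call, 14 gained and 63 lost the call, and 17 changed sign, none of them called. The cause was not tested. Gp1bb, at 3 to 20 counts per library, was too low to test.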
